A study of Mus musculus with 23 samples.

Results

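The genes that surround Grin2b on mouse chromosome 6 were examined in brain RNA of mice carrying an edited Grin2b allele. Members were all genes of the deposited table that overlap GRCm38 chr6:125713233-146173511, which is Grin2b with 10 Mb on either side, with a mean of at least 10 normalized counts over 23 libraries. Grin2b itself and symbols beginning with Kcn or Nduf were excluded by the rule. This gave 107 members of the 18578 genes in the table. Of 127 rows in the window, 14 lay below the mean of 10 and 6 were excluded by name (Grin2b, Kcna5, Kcna1, Kcna6, Ndufa9 and Kcnj8). Just under the mean lay Gm4691 (9.71) and BC035044 (9.74), and just above it Gm30055 (10.48) and Fgf23 (11.1). At the edges, Ano2 and Itpr2 were the outermost members, and Vwf and Ints13 the first genes beyond them.

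All animals were labelled as males of the strain C57BL/6J. Wild-type mice (WT) and mice with 1 copy of the Grin2b allele C456Y (HT, for heterozygous) were either left as controls or given foot-shock, a mild electric stimulus to the paws. WT gave 6 control and 5 shock libraries, HT 6 of each kind. Sample labels give postnatal day 17 for every group whereas the series text speaks of adult mice, so the age is unresolved. Library names of both genotypes carry the letters KI, a usual abbreviation of knock-in. Beyond that, the sources used here do not give how the allele was made. Nor do they give the strain in which it was founded, the brain region or any pooling of animals. Nothing in the labels ties each library to its own animal. The p-values then reflect variation among libraries, part of which may be technical.

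Grin2b encodes GluN2B, a subunit of the NMDA receptor, which is a glutamate-gated cation channel of excitatory synapses. Genes beside an edited gene are inherited together with it, because recombination rarely separates close neighbours. Enhancers and the folding of chromatin into contact domains can also link the transcription of neighbouring genes. The stretch around mouse Grin2b holds genes of many kinds, among them the cell cycle inhibitor Cdkn1b, organic anion transporters of the blood-brain barrier, the lectin receptors of the natural killer complex and bitter taste receptors.

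Of 520 annotated genes in the window 196 were protein coding, and of the 107 members 84 were. The others were antisense RNAs, long intergenic RNAs, a pseudogene and transcripts still to be experimentally verified (TEC). On the side of lower coordinates lay 56 members and on the side of higher coordinates 50, and 1 member, Gm26653, overlapped Grin2b. None of the listed bitter taste receptors and 3 of the 44 listed natural killer complex lectins were members. A listed gene could be missing through the window, the table or the mean of 10. All members passed the filter of the fit, since it was the same mean.

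Totals lay between 30.98 M and 32.57 M normalized counts per library (M, mega), and sequencing depth is unknown. Every listed marker of neurons, astrocytes and oligodendrocytes was measured in the table. Some cell type markers moved with the groups. Over 9 markers of striatal projection neurons the summed level was 20720 to 31799 in HT shock and 33339 to 34385 in WT shock, with 7 of 9 lower after adjustment. Of 8 oligodendrocyte markers 5 were lower in HT shock, with summed levels of 184523 to 230406 against 222642 to 280246. Of 8 neuronal markers 1 was higher and 2 lower, and of 7 astrocyte markers 1 was lower. None of the endothelial, mural, microglial, choroid plexus or blood markers passed in that comparison. Fewer cells of a type and less RNA per cell cannot be told apart in bulk tissue, and the part of these markers in the results on the members was not tested. HT control replicate 6 stood apart from the other HT control libraries, and log2 differences and counts of called members printed here that turn sign or change by over 1.5 times without it are given both ways.

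Differences are on the scale of log2(normalized count + 1), with the standard error (SE), from a limma model of the 4 groups fitted over 17118 genes. A gene was called at an adjusted p under 0.05, with Benjamini-Hochberg adjustment over all genes tested. For each comparison the members' share of calls is set beside the share among all genes tested.

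Without foot-shock no gene near Grin2b passed the threshold between the genotypes. In HT control against WT control 0 of 107 members were called by limma, and percent called over all genes tested was 0% as well. At an unadjusted p under 0.05 limma counted 8 members (7.48%), against 11.1% of all genes tested and 11.3% of the other genes of chromosome 6. The smallest adjusted p among the members was 0.34. The median difference of the members was -0.0137 against -0.000748 over all genes, and the median size of the difference, sign aside, was 0.0672 against 0.0747. Libraries of the 2 groups did not overlap for 0 members, against 0.421% of all genes tested.

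For most members the errors were narrow enough to bound the difference. The interval of 2 SE on either side lay inside a change of 1.5 times for 88 of 107 members, and for 17 of the 21 members within 1 Mb of Grin2b.

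Rerg, a Ras-related growth inhibitor 0.88 Mb from Grin2b at chr6:137054825-137170497, had the smallest p of the members. Its normalized counts were 359.4, 402.0 and 429.2 (lowest, median and highest) in WT control and 325.6, 348.0 and 388.9 in HT control. The HT control libraries were lower on the whole and the groups overlapped. The difference was -0.18 ± 0.06 (SE, limma adjusted p = 0.34). Itpr2, an intracellular calcium release channel, had -0.29 ± 0.10 and Lmo3, a LIM-domain transcriptional regulator of neurons, -0.12 ± 0.05 (-0.0806 without HT control replicate 6). Among members without a Gm or Rik name, the smallest p on the positive side belonged to BC049715, an uncharacterized gene (0.96 ± 0.38). Next in that ranking came Recql, a DNA helicase (0.12 ± 0.06), and Tspan9, a tetraspanin (0.08 ± 0.04). None of these passed.

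After foot-shock 7 members differed between genotypes. Wbp11, a splicing factor, and Rhno1, a factor of the DNA replication checkpoint, were higher in HT shock than in WT shock. Lower were Crebl2, a bZIP protein related to CREB, St8sia1, the sialyltransferase that makes the ganglioside GD3, Etnk1, the ethanolamine kinase that opens phosphatidylethanolamine synthesis, Sspn, a membrane component of the dystrophin complex, and Gm44164, a TEC transcript. Changes were small, between -0.32 and 0.19 on the log2 scale, except for Gm44164 at -1.19.

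The 7 calls make 6.54% of the members, against 9.28% of all genes tested and 12.1% (92 of 760) of the other genes of chromosome 6. The 2 higher members stand beside a background of 3.95% and the 5 lower members beside 5.33%. At an unadjusted p under 0.05 there were 29 members (27.1%), against 27.9% of all genes. The members' share was thus near or under the background by each rule. Their median difference was -0.0103 against 0.00368 over all genes, with 51 positive and 56 negative. Median sizes were 0.129 and 0.113.

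The count of 7 rested on single libraries, as did the count over all genes. It was 14 (13.1%, against 17.1% of all genes) without HT control replicate 6, which enters only the shared estimate of spread, and 13 (12.1% against 13.3%) without HT shock replicate 6. It was 4 without HT shock replicate 4, 3 without WT shock replicate 3, 2 without HT shock replicate 2 or WT shock replicate 1, 2 or 5, and 1 without HT shock replicate 1 or 3. The counts of 1 to 4 make 0.935% to 3.74% of the members, against 2.47% to 4.97% of all genes. In none of these omissions did the members' share exceed that of all genes.

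**Figure D1:**
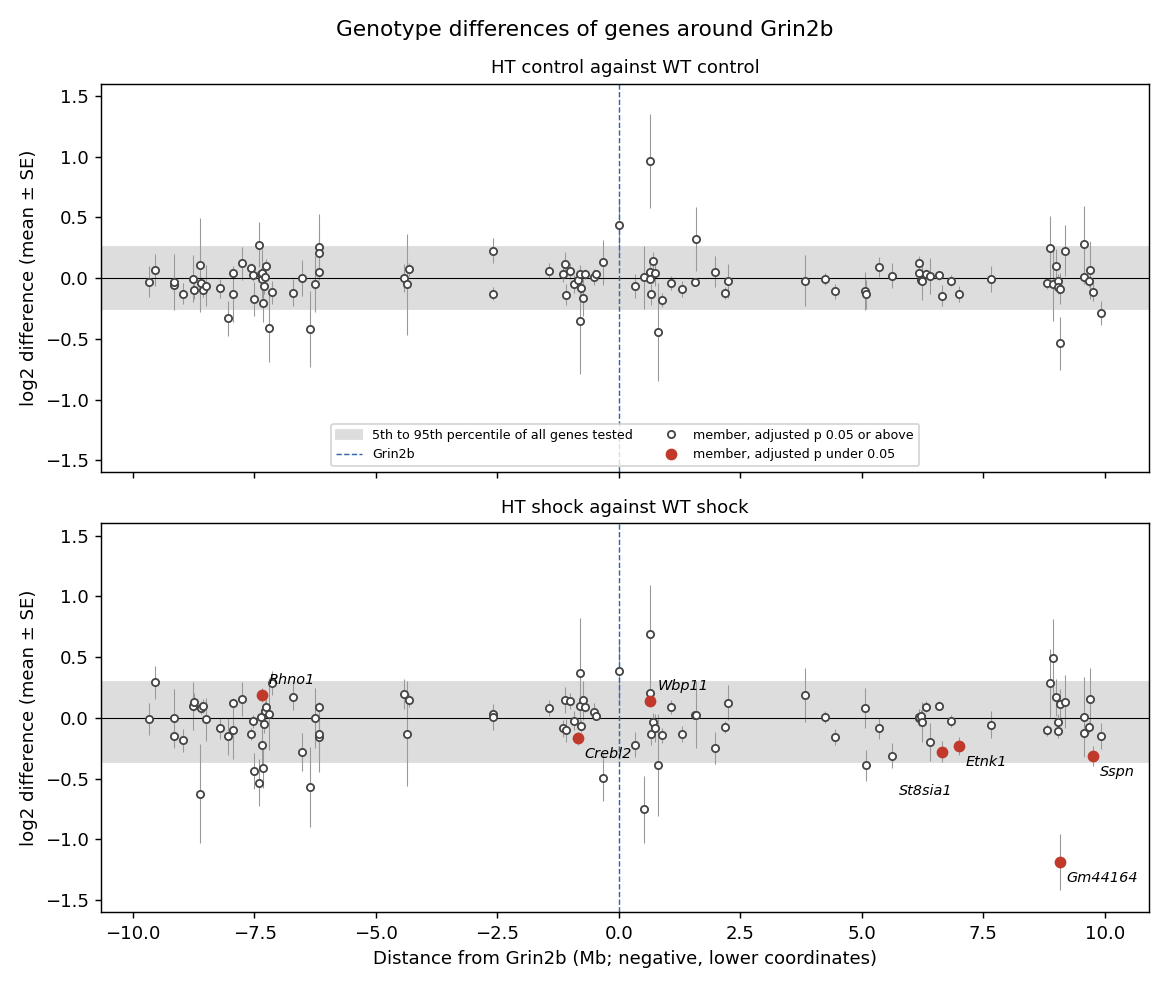
The log2 difference (± SE) of each of the 107 members is plotted against distance from Grin2b in Mb, for the genotype comparison without shock (top) and after shock (bottom). The grey band runs from the 5th to the 95th percentile of all genes tested; no member is called in the top panel, and the 7 named members in the bottom panel are scattered from -7.35 to 9.76 Mb.

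The members nearest to Grin2b were looked at 1 by 1. Gm26653 starts inside the Grin2b transcription unit on the opposite strand (chr6:136173061-136175664, plus strand), shares 451 bases with the 5' end of Grin2b and is annotated as antisense. Without shock its mean was 16.9 ± 4.02 (SD, n = 6) in WT and 23.4 ± 6.35 (SD, n = 6) in HT. After shock the means were 19.1 ± 3.93 (SD, n = 5) in WT and 25.4 ± 6.50 (SD, n = 6) in HT. Libraries overlapped in both genotype comparisons. The difference was 0.43 ± 0.23 without shock (limma adjusted p = 0.48) and 0.38 ± 0.24 after it (adjusted p = 0.296). The library kit keeps the strand, but the sources used here do not give whether the counting used it. Reads from Grin2b and Gm26653 in the shared bases may therefore not be separated. Grin2b itself went the other way, at -0.16 ± 0.08 and -0.26 ± 0.08, and averaged over the treatments it fell by 0.21 ± 0.06 on the log2 scale (adjusted p = 0.0209).

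Towards lower coordinates the 6 nearest members all missed the threshold in all 4 comparisons of genotype and shock. Emp1, an epithelial membrane protein also found in vessels, lies 0.33 Mb away and had 49.5, 67.4, 67.5, 69.0 and 59.3 in WT shock and 25.1, 42.6 and 76.3 (lowest, median, highest) in HT shock. Its difference there was -0.49 ± 0.19 (limma adjusted p = 0.0963), with 1 HT shock library above all of WT shock. Fam234b, a membrane protein, was abundant at a mean of 7543.2 and had 0.01 ± 0.03 after shock and 0.03 ± 0.03 without it. Hebp1, a heme-binding protein, had 0.05 ± 0.07 after shock. Both intervals reached 0. Ddx47, an RNA helicase, had 0.09 ± 0.04 after shock, Apold1, an immediate early gene of endothelium, 0.14 ± 0.16, and Cdkn1b, the cyclin-dependent kinase inhibitor p27, -0.07 ± 0.05.

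Towards higher coordinates Wbp11 was the nearest called member. Atf7ip, a cofactor of the histone methyltransferase Setdb1, had -0.22 ± 0.10 after shock (limma adjusted p = 0.162). Gucy2c, the guanylyl cyclase receptor of guanylin peptides, was scarce, with a mean of 21.6, and had -0.75 ± 0.28 (adjusted p = 0.0762). H2afj, a histone variant, had 0.20 ± 0.09 (adjusted p = 0.126). BC049715, next to Wbp11, had 0.69 ± 0.40 (adjusted p = 0.267).

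**Figure D2:**
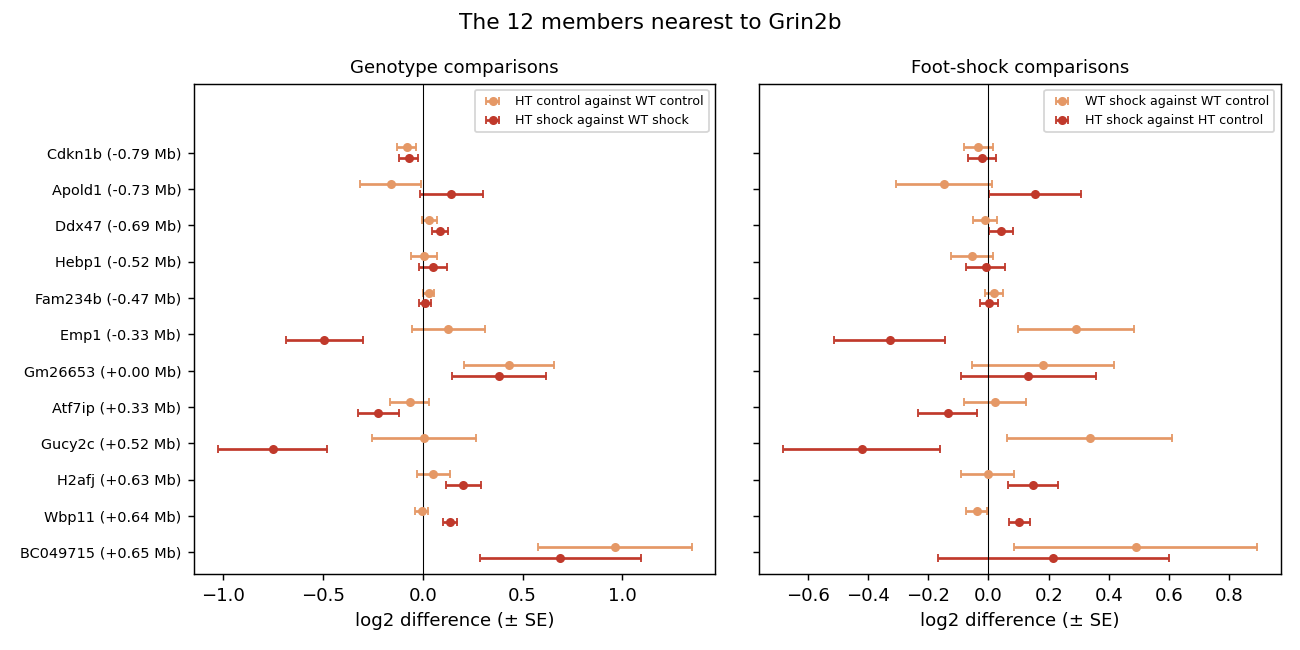
Log2 differences (± SE) of the 12 members nearest to Grin2b, ordered by position, in the genotype comparisons (left) and the foot-shock comparisons (right). Wbp11 after shock is the only one of these called, at 0.14 in HT shock against WT shock; scarce genes (Gm26653, Gucy2c, BC049715, Emp1) carry the widest errors.

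Wbp11 lies 0.64 Mb from Grin2b at chr6:136813654-136828233 on the minus strand and encodes a nuclear protein of the spliceosome. Its normalized counts in WT shock were 2625.5, 2544.5, 2670.9, 2810.4 and 2659.5. In HT shock they were 2788.8, 2953.2 and 3023.0 (lowest, median and highest). Only the lowest HT shock library lay under the highest WT shock library. The difference was 0.14 ± 0.04 (SE, limma adjusted p = 0.0228), which was lost without HT shock replicate 1 (adjusted p = 0.0599), HT shock replicate 3 (0.0507) or WT shock replicate 2 (0.063). Without shock Wbp11 had a difference of -0.01 ± 0.03 (-0.0198 without HT control replicate 6), with means of 2736 ± 98.0 (SD, n = 6) in WT control and 2725 ± 80.7 (SD, n = 6) in HT control. The first 608 bases of Wbp11 are shared with BC049715 on the other strand.

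Crebl2 lies 0.85 Mb away on the other side, at chr6:134830154-134858931. Its normalized counts in WT shock were 1537.4, 1563.0, 1672.7, 1520.8 and 1554.0, and in HT shock 1302.1, 1411.3 and 1461.3 (lowest, median and highest). All HT shock libraries lay under all WT shock libraries. The difference was -0.17 ± 0.05 (SE, limma adjusted p = 0.0405). It missed the threshold when any of 8 libraries was left out (HT shock replicates 1 to 4 and WT shock replicates 1, 2, 3 and 5), with adjusted p up to 0.108. In controls it was -0.02 ± 0.05, with HT control replicates 5 and 6 the lowest of that group (1384.4 and 1350.8), and its sign turned to 0.0169 without HT control replicate 6.

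Rhno1 (-7.35 Mb, chr6:128357000-128362911) shares a head-to-head start with Foxm1, a transcription factor of dividing cells, with 56 bases between the 2 starts. Rhno1 counts were 387.3, 385.5, 361.7, 419.5 and 383.5 in WT shock and 419.4, 441.3 and 465.1 (lowest, median and highest) in HT shock. The lowest HT shock library and the highest WT shock library crossed, and all others were apart. The difference was 0.19 ± 0.06 (SE, limma adjusted p = 0.0419). Foxm1 had -0.22 ± 0.21, so the 2 divergent neighbours had opposite signs, with the Foxm1 interval spanning 0. The Rhno1 call was lost without any of 9 libraries (HT shock replicates 1 to 5 and WT shock replicates 1, 2, 3 and 5), with adjusted p up to 0.109.

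Etnk1 and St8sia1 lie 6.99 and 6.65 Mb from Grin2b, and both act in the synthesis of membrane lipids. Etnk1 (chr6:143167221-143232307) had 12772.7, 12932.3, 13359.0, 12374.6 and 12423.6 in WT shock, and in HT shock 10064.0, 10701.6 and 12309.9 (lowest, median and highest). St8sia1 (chr6:142821545-142964452) had 2469.3, 2487.6, 2489.9, 2181.3 and 2234.2 in WT shock, and in HT shock 1844.1, 1956.2 and 2055.3. For both genes all HT shock libraries lay under all WT shock libraries. Etnk1 fell by 0.23 ± 0.07 on the log2 scale (SE, limma adjusted p = 0.0431) and St8sia1 fell by 0.28 ± 0.09 (adjusted p = 0.045). HT control replicate 6 was the lowest of its group for both, at 9211.9 and 1643.4. Each call was lost when 1 of 10 libraries (Etnk1) or 11 libraries (St8sia1) was left out, among them HT shock replicates 1 to 5 and WT shock replicates 1, 2, 3 and 5 for both. The highest adjusted p was 0.098 and 0.0994.

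Sspn (9.76 Mb, chr6:145931641-145965223) encodes sarcospan. Its counts were 429.0, 402.2, 342.7, 443.0 and 439.2 in WT shock and 307.1, 320.4 and 361.7 (lowest, median and highest) in HT shock. WT shock replicate 3 lay within the HT shock range and the other 4 above it. The difference was -0.32 ± 0.08 (SE, limma adjusted p = 0.023). It was lost, at adjusted p up to 0.0547, without HT shock replicate 1, 2 or 3 or WT shock replicate 1 or 5.

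Gm44164 had the largest difference of the called members. It is a TEC gene 9.07 Mb from Grin2b. Its normalized counts were 49.0, 42.6, 39.0, 40.7 and 38.3 in WT shock and 18.2, 16.5, 23.1, 12.9, 16.6 and 21.1 in HT shock. No HT shock library came near the WT shock range. The difference was -1.19 ± 0.23 (SE, limma adjusted p = 0.00539). It stayed called under all 34 alternatives that gave it a value, between -1.26 and -1.03 (adjusted p 0.000297 to 0.0172), including the omission of each library. Without shock the counts were 28.9, 46.1 and 65.9 (lowest, median and highest) in WT control and 16.2, 35.6 and 44.2 in HT control, with overlap, and the difference was -0.54 ± 0.22 (adjusted p = 0.403). Reads of overlapping RNA could have been counted for Gm44164, so its values are uncertain as to their source.

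**Figure D3:**
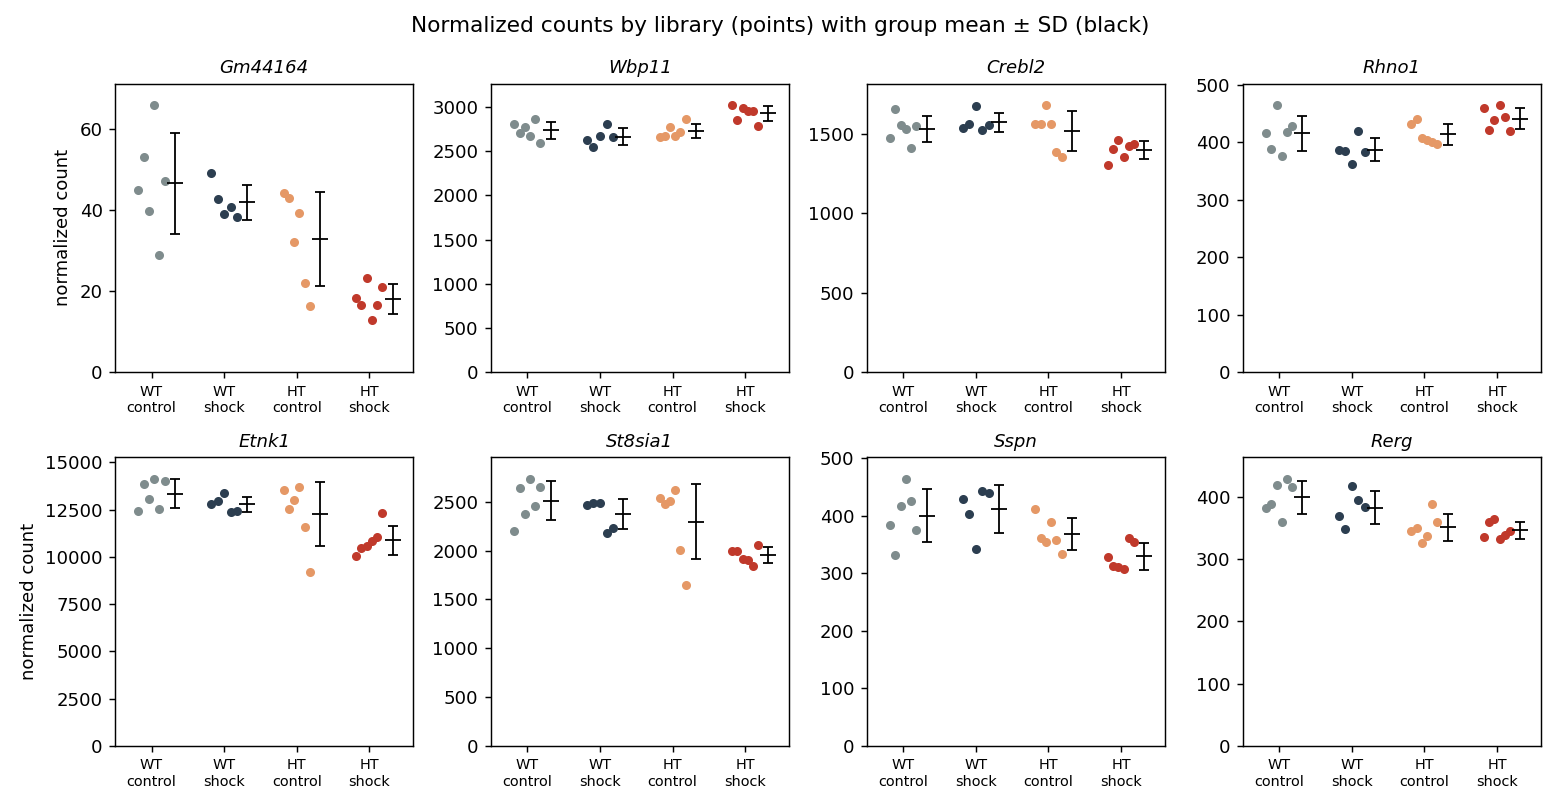
Normalized counts of 8 members in each library (points) with the mean ± SD of each group (black), axes starting at 0. Gm44164 lies between 12.9 and 23.1 in HT shock and between 38.3 and 49.0 in WT shock; the groups of the other 7 genes lie closer together, and HT control replicate 6 is the lowest HT control point for Etnk1 and St8sia1.

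Promoter sequences are shown for 3 members that carry these results: Wbp11, the nearest called gene, and Etnk1 and St8sia1, which lie within 1 Mb of each other and were lower together. Each is the 250 bases before the RefSeq start (GRCm38.p6), 5' to 3' on the gene's own strand. Capitals mark the GC box GGGCGG and the CCAAT box, on either strand.
Wbp11, chr6:136828217-136828466, minus strand: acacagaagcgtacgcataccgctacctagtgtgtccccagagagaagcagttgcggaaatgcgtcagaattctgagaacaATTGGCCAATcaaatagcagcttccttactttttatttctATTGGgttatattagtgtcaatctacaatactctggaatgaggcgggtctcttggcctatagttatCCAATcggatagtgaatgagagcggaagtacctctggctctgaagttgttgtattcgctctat
St8sia1, chr6:142964453-142964702, minus strand: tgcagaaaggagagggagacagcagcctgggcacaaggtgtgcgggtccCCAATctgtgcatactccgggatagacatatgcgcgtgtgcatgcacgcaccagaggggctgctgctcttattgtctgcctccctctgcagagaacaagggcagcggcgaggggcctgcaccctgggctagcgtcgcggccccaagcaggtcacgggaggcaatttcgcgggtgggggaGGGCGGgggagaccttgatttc
Etnk1, chr6:143166980-143167229, plus strand: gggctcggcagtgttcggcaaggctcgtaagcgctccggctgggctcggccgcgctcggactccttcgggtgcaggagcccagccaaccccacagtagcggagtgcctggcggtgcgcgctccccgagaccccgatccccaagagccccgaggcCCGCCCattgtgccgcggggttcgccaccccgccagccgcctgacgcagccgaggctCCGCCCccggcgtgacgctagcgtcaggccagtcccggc
The Wbp11 stretch holds 4 CCAAT matches and 0 GC boxes, with a pair of them abutting on opposite strands, and a GC content of 43.6%. The Etnk1 stretch holds 2 GC boxes and 0 CCAAT matches at 74.8% GC, and that of St8sia1 1 of each at 63.6% GC. Of 32851 RefSeq promoters cut in the same way 32.7% hold a GC box and 33.8% a CCAAT match, and among the 72 members with an entry these were 40.3% and 38.9%. The TATA box TATAAA was in 8.33% of the member promoters against 12.4%, the E-box CACGTG in 5.56% against 6.02%, and the cyclic AMP response element TGACGTCA in 0 against 1.55%. A match is a description of letters and not a binding site.

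By role, the calls after shock fell on 1 or 2 members of a list, to be read beside the 9.28% of all genes tested. The lists were drawn up with earlier results of these data known, and no list was tested as a set. Of 15 regulators of transcription and chromatin 1 was called (6.67%; Crebl2, lower), 10 were negative and the median was -0.0722. Of 7 genes of cell cycle and DNA repair 1 was called (14.3%; Rhno1, higher), with Ccnd2, a cyclin, at 0.10 ± 0.06. The RNA processing list held 6 members, Magohb, Ybx3, Ddx47, Wbp11, Strap and Golt1b, the last of which is known for Golgi vesicle transport and not for RNA. All 6 had positive differences, with a median of 0.111, and 1 was called (16.7%; Wbp11). Ybx3, which binds mRNA, had 0.15 ± 0.05 (limma adjusted p = 0.0841) and Ddx47 0.09 ± 0.04. Of 10 metabolic enzymes 2 were called, a share above that of all genes, Etnk1 and St8sia1, both lower, whereas Cmas, which activates sialic acid, had 0.10 ± 0.04 (adjusted p = 0.0943). The Cmas libraries of HT shock (2445.1 to 2570.8) all lay above those of WT shock (2262.8 to 2401.2).

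None of the 8 members of Ras and small GTPase signalling was called after shock, with 6 negative and a median of -0.116. Of 9 members of phosphoinositide, calcium and cyclic nucleotide signalling 0 were called. Pde3a, a phosphodiesterase that breaks down cyclic AMP, came closest, at -0.39 ± 0.13 (limma adjusted p = 0.0522). Its HT shock libraries (208.9 to 279.6) all lay below those of WT shock (291.7 to 354.7). The list of smooth muscle, vessel and ATP-sensitive channel genes held 5 members, Emp1, Mgp, Pde3a, Abcc9 and Sspn. All 5 were negative, with a median of -0.316, and 1 of the 5 was called (Sspn), beside 9.28% of all genes tested and 5.33% called lower. Of 9 markers of mural cells and fibroblasts, which include Abcc9, 0 were called in this comparison, 4 were positive and 5 negative, with a median of -0.0057.

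Both organic anion transporters of the window that reached the mean of 10 had negative differences after shock and neither passed. Slco1a4, a transporter of brain endothelium, had 1348.8, 1133.7, 1089.7, 1222.2 and 1112.6 in WT shock and 778.0, 903.0 and 1187.1 (lowest, median, highest) in HT shock. The difference was -0.31 ± 0.10 (limma adjusted p = 0.0602), and 2 HT shock libraries lay within the WT shock range. Slco1c1, the thyroxine transporter of the blood-brain barrier, had -0.09 ± 0.09. Beside these values, of 8 endothelial markers, which include Slco1a4, 0 were called and 7 were negative, and their summed level was 3808 to 5545 in HT shock and 4569 to 5632 in WT shock. The part of vessel content in these values was not tested.

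No member of the lists of lectins, alpha-2-macroglobulins, secreted factors or autophagy was called after shock. The 3 natural killer complex lectins among the members had negative differences after shock and 0 were called, with Clec2d at -0.28 ± 0.16 and Clec12a at -0.57 ± 0.33. A2ml1, a protease inhibitor of the alpha-2-macroglobulin family, had 0.28 ± 0.10 (limma adjusted p = 0.0649), with HT shock (217.9 to 279.9) above WT shock (168.7 to 210.5) in every library. Of 9 members listed as secreted factors and receptors of neurons 0 were called. Ntf3, the neurotrophin NT-3, had 0.29 ± 0.14. Tspan9, a tetraspanin and so neither a secreted factor nor a classical receptor, had -0.13 ± 0.05. The autophagy and membrane traffic list held 4 members, Gabarapl1, Borcs5, Golt1b and Etv6, the last being a transcriptional repressor of the ETS family also listed among the regulators of transcription. All 4 were positive and 0 were called, with Gabarapl1, an ATG8 protein of autophagosomes, at 0.09 ± 0.04 and Borcs5, a subunit of the lysosome positioning complex BORC, at 0.14 ± 0.07.

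Libraries of HT shock and WT shock did not overlap for 8 members (7.48%), against 8.57% of all genes tested. Of these A2ml1 and Cmas were higher in HT shock. Crebl2, Aebp2, Pde3a, St8sia1, Etnk1 and Gm44164 were lower, Aebp2 being a cofactor of the Polycomb repressive complex.

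Calls were also counted by distance from Grin2b. Within 1 Mb 2 of 21 members (9.52%) were called after shock, within 2 Mb 2 of 31 (6.45%), within 5 Mb 2 of 41 (4.88%) and within 10 Mb 7 of 107 (6.54%), against the 9.28% of all genes. At an unadjusted p under 0.05 the shares were 38.1% (8 of 21), 29.0%, 26.8% and 27.1%, against 27.9%. The 8 members within 1 Mb had mixed signs, with Ddx47, H2afj and Wbp11 positive and Crebl2, Emp1, Atf7ip, Gucy2c and Rerg negative. The 2 sides of the window differed in their counts of calls, at 5 of 50 members towards higher coordinates and 2 of 56 towards lower ones. This difference was not tested, and members that share a stretch of chromosome are not independent. Between 5 and 10 Mb on the side of higher coordinates 4 of 30 members (13.3%) were called, all of them lower in HT shock. Beside this stand 9.28% of all genes called and 5.33% called lower, and the share of this bin was not tested.

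**Figure D4:**
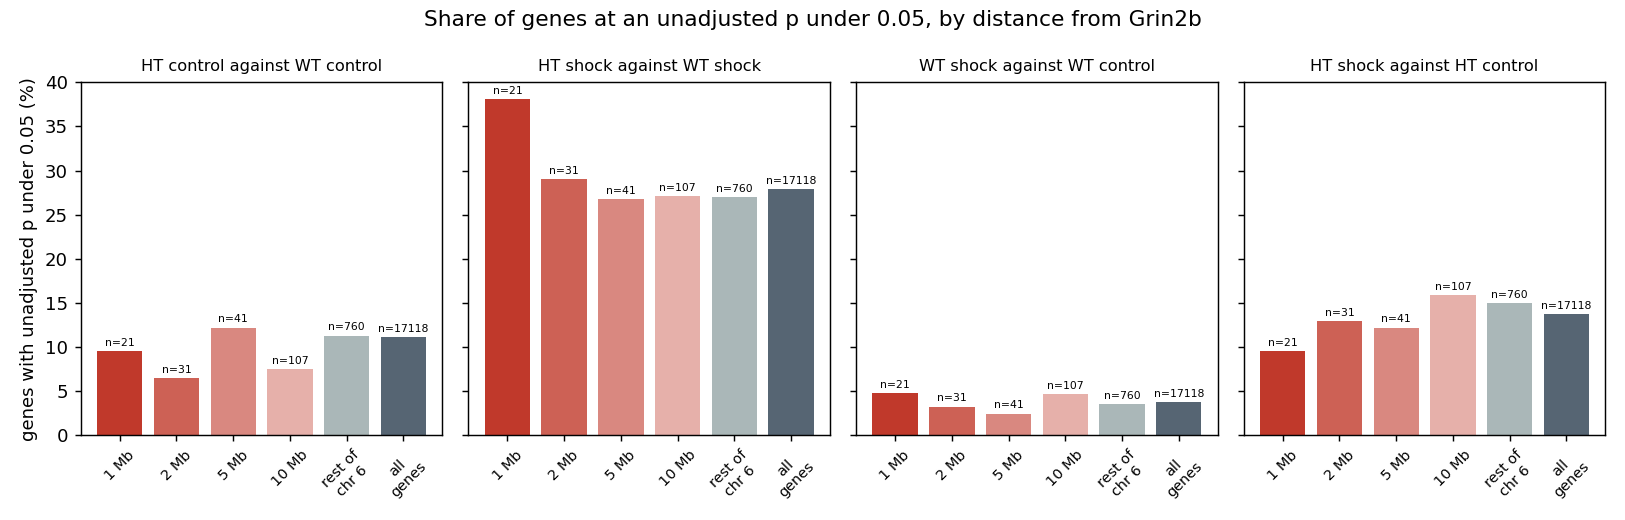
Share of genes at an unadjusted p under 0.05 (y axis, %) among members within 1, 2, 5 and 10 Mb of Grin2b, the rest of chromosome 6 and all genes tested, for the 4 comparisons. After shock the genotype comparison has 38.1% within 1 Mb (8 of 21 genes) and 27.1% within 10 Mb, beside 27.9% of all genes; windows are nested and their genes are not replicates.

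Averaged over both treatments, 10 members differed between genotypes, 9 lower and 1 higher in HT. These were Gm44164, Rerg, Sspn, Etnk1, St8sia1, Aebp2, Gm10010, a long intergenic RNA, Itpr2 and Pde3a among the lower, and BC049715 as the higher one. The share of 9.35% stands beside 14.0% of all genes tested and 14.7% (112 of 760) of the rest of chromosome 6. For the 1 higher member the background was 5.42% and for the 9 lower 8.62%. At an unadjusted p under 0.05 there were 32 members (29.9%) against 31.3%. In the same comparison 9 of 9 striatal and 4 of 8 oligodendrocyte markers were called lower, and of 8 neuronal markers 1 was higher and 3 lower. Of 7 astrocyte markers 1 was higher and 2 lower, and 1 of 8 endothelial markers was higher. Summed striatal markers did not overlap without shock either, at 27664 to 33890 in HT control and 34129 to 37812 in WT control. The part of these markers in the averaged values was not tested. The count was 17 (15.9%, against 16.9% of all genes) without HT shock replicate 6. It was 6 (5.61%, against 9.84% to 12.9% of all genes) without HT shock replicate 5, WT control replicate 2, 4 or 6 or WT shock replicate 2. It was 5 (4.67%, against 10.2% to 11.5%) without HT control replicate 5, HT shock replicate 2, 3 or 4 or WT shock replicate 3.

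Rerg, a member within 1 Mb, had a negative difference in both treatments, and it was called in neither of them alone. Its counts after shock were 369.6, 348.7, 417.4, 394.9 and 383.5 in WT and 333.0, 341.9 and 364.0 (lowest, median and highest) in HT, and 4 of 5 WT shock libraries lay above all of HT shock. The averaged difference was -0.16 ± 0.04 (SE, limma adjusted p = 0.0156). Values in the 2 treatments were -0.18 ± 0.06 and -0.14 ± 0.06. BC049715 had 3.9, 12.6 and 25.2 (lowest, median and highest) in WT control and 12.8, 24.1 and 52.6 in HT control, with wide overlap. Its averaged difference was 0.83 ± 0.28 (adjusted p = 0.0476), and leaving out any of 16 libraries ended the call, with adjusted p up to 0.092.

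Gm44164 had an averaged difference of -0.86 ± 0.16 (limma adjusted p = 0.00247), Sspn -0.21 ± 0.06 (0.0161), Etnk1 -0.18 ± 0.05 (0.0194) and St8sia1 -0.21 ± 0.06 (0.0234). Together with Rerg these 4 kept their call in all 33 alternatives. Without shock Etnk1 had only -0.132 (-0.0516 without HT control replicate 6), St8sia1 -0.144 (-0.0515) and Sspn -0.114 (-0.0859), none of them called. Aebp2 (-0.13 ± 0.04), Gm10010 (-0.31 ± 0.10), Itpr2 (-0.22 ± 0.07) and Pde3a (-0.26 ± 0.09) lay between limma adjusted p = 0.0393 and 0.0468. Each lost its call without any of 12 to 16 libraries. Without shock Pde3a had -0.135, which turned to 0.0118 without HT control replicate 6. By the same omission Gm10010 went from -0.172 to -0.0531 and Itpr2 from -0.288 to -0.233. By side, 9 of 50 members (18.0%) towards higher coordinates and 1 of 56 (1.79%) towards lower ones were called, against 14.0% of all genes. Within 1 Mb 2 of 21 (9.52%) were, BC049715 and Rerg.

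The 2 genotype comparisons share no library, so their signs can be set side by side. They had the same sign in 69 of 107 members (64.5%), and in 69.2% of all genes tested. An unadjusted p under 0.05 in both with the same sign was found for 2 members (1.87%), Rerg and Gm44164, against 5.29% of all genes.

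Foot-shock itself left no call near Grin2b in either genotype. In WT shock against WT control 0 of 107 members and 0% of all genes tested were called by limma, and 5 members (4.67%) had an unadjusted p under 0.05 against 3.72% of all genes. Tspan9 had the smallest p, with 2632.2, 2755.4 and 3071.0 (lowest, median and highest) in WT control and 3026.0, 3243.1, 2949.2, 2993.7 and 3135.2 in WT shock. The groups overlapped, and the difference was 0.12 ± 0.05 (limma adjusted p = 0.998). Tead4, a TEAD factor of the Hippo pathway, had 0.50 ± 0.19 and Mgp, a matrix protein that inhibits calcification, 0.18 ± 0.08. Casc1, a gene of motile cilia, had -0.36 ± 0.15, Bhlhe41, a circadian repressor, -0.11 ± 0.05, and Smim10l1, a small membrane protein, -0.10 ± 0.05.

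In HT shock against HT control 0 of 107 members and 0% of all genes were called, and 17 members (15.9%) had an unadjusted p under 0.05 against 13.7% of all genes. Gm44164 had -0.76 ± 0.22 (limma adjusted p = 0.235), Bhlhe41 -0.15 ± 0.05 (0.256), A2ml1 0.29 ± 0.09 (0.258) and Wbp11 0.10 ± 0.03 (0.261). Ptpro, a receptor tyrosine phosphatase of neurons, had 0.15 ± 0.06, and Recql -0.15 ± 0.06. Without HT control replicate 6 the count became 11 members (10.3%; 2 higher and 9 lower), beside 12.1% of all genes tested. Among them were Gm44164 (limma adjusted p = 0.00562), Bhlhe41 (0.00784), A2ml1 (0.00728) and Wbp11 (0.0224), but not Ptpro or Recql. Of the members with library ranges that did not overlap there were 0 in each shock comparison, against 0.374% of all genes in WT and 0.286% in HT. HT shock enters this comparison and the genotype comparison after shock, so the values of Gm44164 and Wbp11 in both are not independent.

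**Figure D5:**
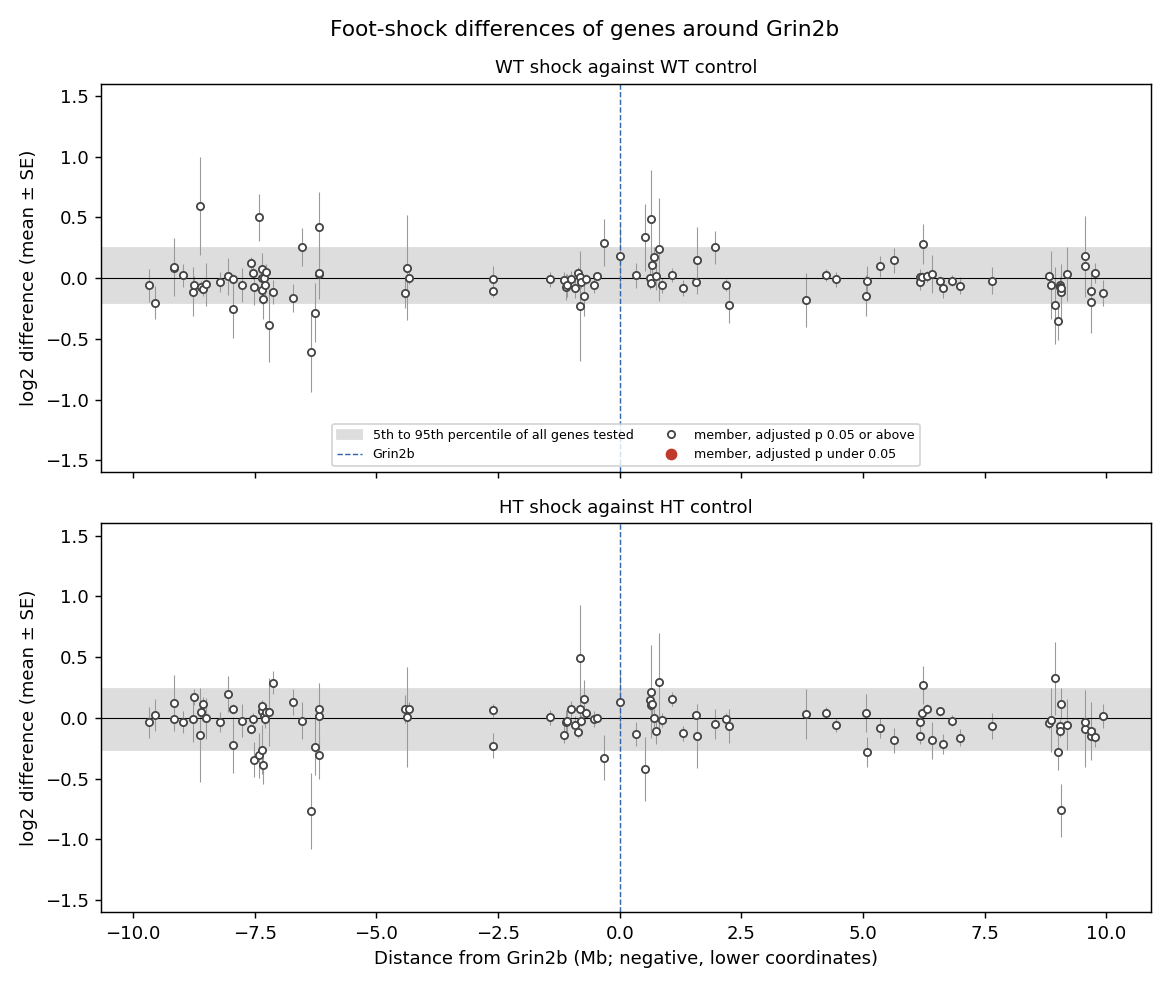
The log2 difference (± SE) of each member against distance from Grin2b in Mb for foot-shock in WT (top) and in HT (bottom), with the 5th to 95th percentile of all genes tested in grey. No member is called in either panel, and Gm44164 and the scarce Clec12a lie lowest in HT, both at -0.76.

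Whether foot-shock changed the members differently in the 2 genotypes was tested as an interaction. By limma 0 of 107 members and 0% of all genes tested passed, and 11 members (10.3%) had an unadjusted p under 0.05 against 6.43% of all genes. The smallest p was that of Tspan9, at -0.22 ± 0.06 (limma adjusted p = 0.552), whose mean in WT went from 2820 ± 177 (SD, n = 6) without shock to 3069 ± 119 (SD, n = 5) with it. In HT the corresponding means were 2986 ± 153 (SD, n = 6) and 2800 ± 133 (SD, n = 6). Tead4 had -0.81 ± 0.27, Emp1 -0.62 ± 0.27, A2ml1 0.40 ± 0.14, Wbp11 0.14 ± 0.05 and Ccnd2 0.20 ± 0.08, all with adjusted p of 0.552 or more. For Crebl2 the interaction was -0.15 ± 0.07 and for Gm44164 -0.65 ± 0.32, so the difference between their 2 genotype comparisons was not called either. The interval of 2 SE lay inside a change of 1.5 times for 68 of 107 members.

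Some neighbours share a start region or overlap. Among the members, Grin2b and the genes excluded by name there were 9 head-to-head pairs, 15 overlaps on opposite strands and 5 on the same strand. Hebp1 and Fam234b, whose starts lie 45 bases apart, had 0.05 ± 0.07 and 0.01 ± 0.03 after shock. Recql and Golt1b, 134 bases apart, had 0.00 ± 0.06 and 0.02 ± 0.05. Pde3a and its antisense partner Gm28523 had -0.39 and 0.08. For overlapping genes on opposite strands the counting may have divided reads in a way that is not known.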

How the data were processed

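The authors deposited a table of normalized counts with decimals per gene and library, a signal that is no longer a raw read count. Per the submitters' processing notes the tools were R 3.6.2, DESeq2 1.26.0 and Salmon 1.1.0, on GRCm38, with their roles unstated. RNA was prepared with a stranded mRNA kit, per the labels' protocols. Reads could not be recovered, so depth is unknown. A count test was planned first, with limma for normalized values, and limma was used. Of 24 library columns 1 matched no sample and was left out. Groups came from the titles. Results on 1 member are not reported here.

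Positions were joined by Ensembl ID from GENCODE vM21 (18563 of 18578 IDs). Values were taken as log2(normalized count + 1), so folds of low genes come out too small. In R 4.3.3, limma 3.58.1 with statmod 1.5.0, the 4 groups, a mean-variance trend and robust moderation were fitted to 17118 genes with a mean of at least 10, Benjamini-Hochberg adjusted within each of 6 comparisons. It was tested on simulated data. Promoters came from RefSeq (GRCm38.p6), and 72 members matched. Figures used matplotlib 3.10.9 in Python 3.11.15.

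Members and lists were chosen with earlier results of these data known. The rule named the 6 nearest members on each side and the members at the thresholds. It named up to 8 called members per direction, or else the 3 smallest p outside Gm and Rik names. Of each role list it named up to 4 called members, or else the 2 with the smallest p. Gm44164, Gm10010, Aebp2, Cmas, Ybx3, Abcc9, Golt1b, Etv6, Magohb, Strap and the neighbours in shared-start pairs were named after their values were seen. Role lists covered Grin2b neighbours, transcription, cell cycle, RNA processing, Ras signalling, phosphoinositide and calcium signalling, anion transporters, metabolic enzymes, vessel genes, natural killer lectins, alpha-2-macroglobulins, secreted factors, autophagy and bitter taste receptors. Alternatives were median centring, filters, pseudocounts of 0.5 and 5, the compared groups alone, replicate blocks, library weights, a residual component, an adjusted p of 0.1, narrower windows and the omission of each library.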

Additional observations from a re-analysis of the deposited data

Results flagged for a closer look

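In 12 of the 164 groups of 5 or 6 libraries tested over the named genes (7.32%), the most extreme library stood apart from the rest of its group, and chance does this in about 1 group in 20. In WT shock, replicate 3 was the source of 4 of them: Fam234b was 8030.3 (the others 7276 to 7467.4), Cdkn1b 2013.9 (1818.1 to 1867.8), Crebl2 1672.7 (1520.8 to 1563) and Casc1 28.9 (35.9 to 38.4). WT shock replicate 5 had 711.5 for Itpr2, against 557.6 to 596.3 in the others. In HT control, replicate 6 had 1643 for Cdkn1b (the others 1797.5 to 1884.4) and 1046.6 for Borcs5 (798 to 887.9), replicate 1 had 4316.7 for Atf7ip (2613.8 to 2865.6) and replicate 4 had 35.8 for Clec12a (8.1 to 18.1). In HT shock, replicate 1 had 2538.3 for Lmo3 (2697.2 to 2791.4) and replicate 5 had 1634.6 for Ccnd2 (1879.9 to 2020.1). In WT control, replicate 6 had 754.1 for Mgp, against 590.6 to 641.2 in the others. Crebl2 is the only one of these genes among the 7 called after foot-shock, and without WT shock replicate 3 its difference was -0.15 (limma adjusted p = 0.108). Itpr2 is among the 10 called for the genotype averaged over treatments. Without WT shock replicate 5 its averaged difference was -0.19 (limma adjusted p = 0.0862), and omission of other libraries also ended its call.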

How the results depend on the processing

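No called result reversed under any alternative. In HT control against WT control, WT shock against WT control and the interaction the count of called members was 0 under every alternative. In HT shock against WT shock the count of 7 became 15 with the compared groups alone, 21 with library weights, 11 with the first residual component, 19 at an adjusted p of 0.1 and 2 within 5 Mb or 2 Mb. Leaving out 1 library at a time gave 1 to 14. For HT shock against HT control the count was 14 with library weights and 0 to 11 with a library left out, and 0 otherwise. For the genotype averaged over treatments the count of 10 became 20 at an adjusted p of 0.1, 3 within 5 Mb and 2 within 2 Mb, with 5 to 17 when a library was left out. The cause was not tested, apart from the fewer genes of a narrower window. In HT shock against WT shock the members' share of calls was at or under that of all genes tested in 35 of 36 alternatives. It was over it in 1. The members' share was at or under that of all genes in all 36 for HT shock against HT control. The same held in all 35 for the averaged genotype. The members' median in HT shock against WT shock lay between -0.0363 and 0.00255, so its sign was not fixed.

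Libraries with the same title replicate number were at most weakly correlated. Over 22 pairs the correlation of deviations ran from -0.154 to 0.194, with 4 over 0.1. By the numbers of the library names it ran from -0.114 to 0.194, with 2 over 0.1. Such values cannot tell whether the numbers mark a pairing. With the title number as a replicate block the count was 3 in HT shock against WT shock (2.80% of members, against 2.63% of all genes) and 5 for the averaged genotype. With the library name number as a block the median in HT shock against WT shock was -0.0363. Depth is unknown, so no counting error could be given for scarce members such as BC049715, Gm26653 and Gm44164.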
